A study of Mus musculus with 10 samples.

Results

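Chil3, Chil4, Retnla, Rnase2a and Ear2 are mouse genes of secreted proteins that belong to 3 families and are used as marks of alternatively activated macrophages. They were taken by symbol from the deposited table of read counts, in which they were 5 of 22165 genes. All 5 passed the filter on low counts, with 11614 genes tested in all, but Chil4 and Rnase2a passed it through the IL-4 libraries alone, since both had 0 counts in every basal library.

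Chil3 (also called Ym1) and Chil4 (Ym2) encode chitinase-like lectins that bind sugar polymers but do not cut chitin. Retnla encodes resistin-like molecule alpha, a secreted factor of type 2 immunity and tissue repair. Rnase2a (formerly Ear11) and Ear2 encode eosinophil-associated ribonucleases, which belong to the ribonuclease A superfamily; the Ear11 protein attracts macrophages in mice. IL-4 binds its receptor on macrophages and activates the transcription factor STAT6, and induction of Chil3, Retnla and Arg1 by IL-4 is the usual readout of alternative activation in mouse peritoneal macrophages.

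The study measured polyadenylated RNA of peritoneal cavity macrophages from C57BL/6 mice, sorted on CD64, ICAM-2 and CD115, in 10 libraries. Knockout (KO) mice carried a floxed allele together with LysM-Cre, a Cre recombinase expressed from the Lyz2 locus in myeloid cells, and the mice called wild type (WT) carried the floxed allele without Cre. Mice had been injected intraperitoneally with IL-4 bound to an anti-IL-4 antibody, which prolongs the cytokine's action, or with saline (basal), and macrophages were lavaged 36 hours later. There were 3 KO IL-4, 3 WT IL-4, 2 KO basal and 2 WT basal libraries. Genotype is therefore confounded with the presence of Cre. The labels do not say whether replicates came from separate mice, and p-values then speak for the spread among these samples, which may be technical.

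Counted reads ranged from 8762403 to 15024073 per library. Levels are CPM, the counts of a gene scaled to a common library size with TMM factors, ± is the SD between libraries after a mean level and the standard error after a log2 difference, and differences are KO minus WT or IL-4 minus basal. A gene was called where edgeR's quasi-likelihood test gave an adjusted p below 0.05, by the Benjamini-Hochberg method across the 11614 genes. Lyz2, the Cre driver, was at 2664 and 9675 CPM in KO basal libraries, against 23600 and 21903 CPM in WT basal libraries (log2 -1.88 ± 0.42, adjusted p = 0.0249). After IL-4 it averaged 3482 ± 625 CPM in KO and 6472 ± 567 CPM in WT libraries and was not called between genotypes (log2 -0.89 ± 0.34, adjusted p = 0.249). Lyz2 was also called lower after IL-4 in WT (log2 -1.81 ± 0.37, adjusted p = 0.0123).

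The 5 genes lie on 3 chromosomes (mm10, GENCODE M21 annotation). Chil3 (ENSMUSG00000040809, chromosome 3, 106147554 to 106167564, minus strand) and Chil4 (ENSMUSG00000063779, chromosome 3, 106201490 to 106219507, minus strand) are neighbours separated by 33.9 kb. Retnla (ENSMUSG00000061100) lies on chromosome 16, 48842551 to 48844461, on the plus strand. Rnase2a (ENSMUSG00000047222, chromosome 14, 51255262 to 51256112, minus strand) and Ear2 (ENSMUSG00000072596, chromosome 14, 44102654 to 44103534, plus strand) lie 7151.7 kb apart, and Ear2 is overlapped on the other strand by the predicted gene Gm49101. The strand setting of the counting is not given in the sources used here, so reads of Ear2 and Gm49101 cannot be told apart.

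The promoters are shown because the genes responded to the same cytokine by very different amounts, and because the pairs of paralogs can be compared letter by letter. Each sequence is RefSeq's (GRCm38.p6), 250 bases before to 50 bases from the transcription start, read 5′ to 3′ on the gene's own strand. The RefSeq starts of Chil4 and Retnla lie inside the GENCODE genes. Capitals mark matches, on either strand, to TTCNNNNGAA (the STAT6 motif), TTCNNNGAA (the general STAT motif), TTGCNNAA (C/EBP), GAGGAA (the PU.1 core) or TATAAA (the TATA box).
Chil3, chr3:106167515-106167814, minus strand: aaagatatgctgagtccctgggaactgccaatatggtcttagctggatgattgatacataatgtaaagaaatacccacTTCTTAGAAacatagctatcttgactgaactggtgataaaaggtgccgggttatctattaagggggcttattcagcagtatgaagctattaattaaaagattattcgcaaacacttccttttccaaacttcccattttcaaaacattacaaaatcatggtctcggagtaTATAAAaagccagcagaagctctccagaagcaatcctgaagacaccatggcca
Chil4, chr3:106219430-106219729, minus strand: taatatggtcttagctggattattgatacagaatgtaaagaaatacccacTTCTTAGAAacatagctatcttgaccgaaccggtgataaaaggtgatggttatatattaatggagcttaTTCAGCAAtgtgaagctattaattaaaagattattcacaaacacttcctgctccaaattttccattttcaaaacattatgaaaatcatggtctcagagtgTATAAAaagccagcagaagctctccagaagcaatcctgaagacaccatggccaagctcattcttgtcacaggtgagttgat
Retnla, chr16:48842359-48842658, plus strand: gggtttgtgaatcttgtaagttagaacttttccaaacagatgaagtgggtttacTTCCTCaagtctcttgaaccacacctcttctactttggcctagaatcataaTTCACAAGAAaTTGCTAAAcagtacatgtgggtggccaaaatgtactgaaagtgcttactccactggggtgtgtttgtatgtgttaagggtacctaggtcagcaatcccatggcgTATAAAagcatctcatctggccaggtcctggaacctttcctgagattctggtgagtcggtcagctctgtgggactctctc
Rnase2a, chr14:51256063-51256362, minus strand: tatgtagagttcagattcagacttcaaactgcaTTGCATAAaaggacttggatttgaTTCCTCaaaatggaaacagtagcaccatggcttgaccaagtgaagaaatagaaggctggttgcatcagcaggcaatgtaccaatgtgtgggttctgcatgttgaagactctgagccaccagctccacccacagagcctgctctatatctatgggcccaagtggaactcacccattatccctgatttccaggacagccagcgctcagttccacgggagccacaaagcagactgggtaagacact
Ear2, chr14:44102404-44102703, plus strand: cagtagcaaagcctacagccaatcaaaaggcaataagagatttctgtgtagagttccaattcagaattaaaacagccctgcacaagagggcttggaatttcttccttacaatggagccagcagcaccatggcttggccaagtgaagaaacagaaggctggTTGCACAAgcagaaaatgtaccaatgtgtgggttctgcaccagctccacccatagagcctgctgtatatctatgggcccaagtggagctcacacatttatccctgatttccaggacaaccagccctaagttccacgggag

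Among these promoters the letters TTCNNNNGAA occurred only in Retnla, as TTCACAAGAA with its first base 145 bases before the start, and a C/EBP match, TTGCTAAA, began 134 bases before the start. Over 32851 mouse promoters of the same length, 6.95% held TTCNNNNGAA and 10.8% held TTGCNNAA. Chil3 and Chil4 both held TTCTTAGAA, a match to TTCNNNGAA (8.3% of promoters), at 172 and 200 bases before their starts. A C/EBP match was present in Chil4, Retnla, Rnase2a and Ear2. TATAAA (13.6% of promoters) was in Chil3, Chil4 and Retnla, and the PU.1 core (28.3%) in Retnla and Rnase2a. TATAAA began 3 bases before the start in Chil3 and 31 bases before it in Chil4. The TTCTTAGAA and TATAAA matches were thus shifted alike, and the annotated starts of the pair do not lie at matching places. No match overlapped another. Chil3 and Chil4 were identical at 251 of 271 aligned bases (92.6%), and Rnase2a and Ear2 at 223 of 255 (87.5%). A match is a description of the letters and says nothing of whether a factor binds there.

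The transcripts of the paralogs also share sequence, which bears on how reads can be assigned. Of the 50-base windows of the Chil3 transcript, 29.4% also occurred in transcripts of other genes (Chil4 and Gm6522), and 20.4% of the Chil4 windows were shared. Ear2 shared 41.5% of its windows, mostly with Ear10, Ear1 and pseudogenes of the family, while Retnla and Rnase2a shared 0. How reads that fit several genes were counted is not given in the sources used here, so levels of Chil4 and Ear2 in particular are uncertain.

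**Figure D1:**
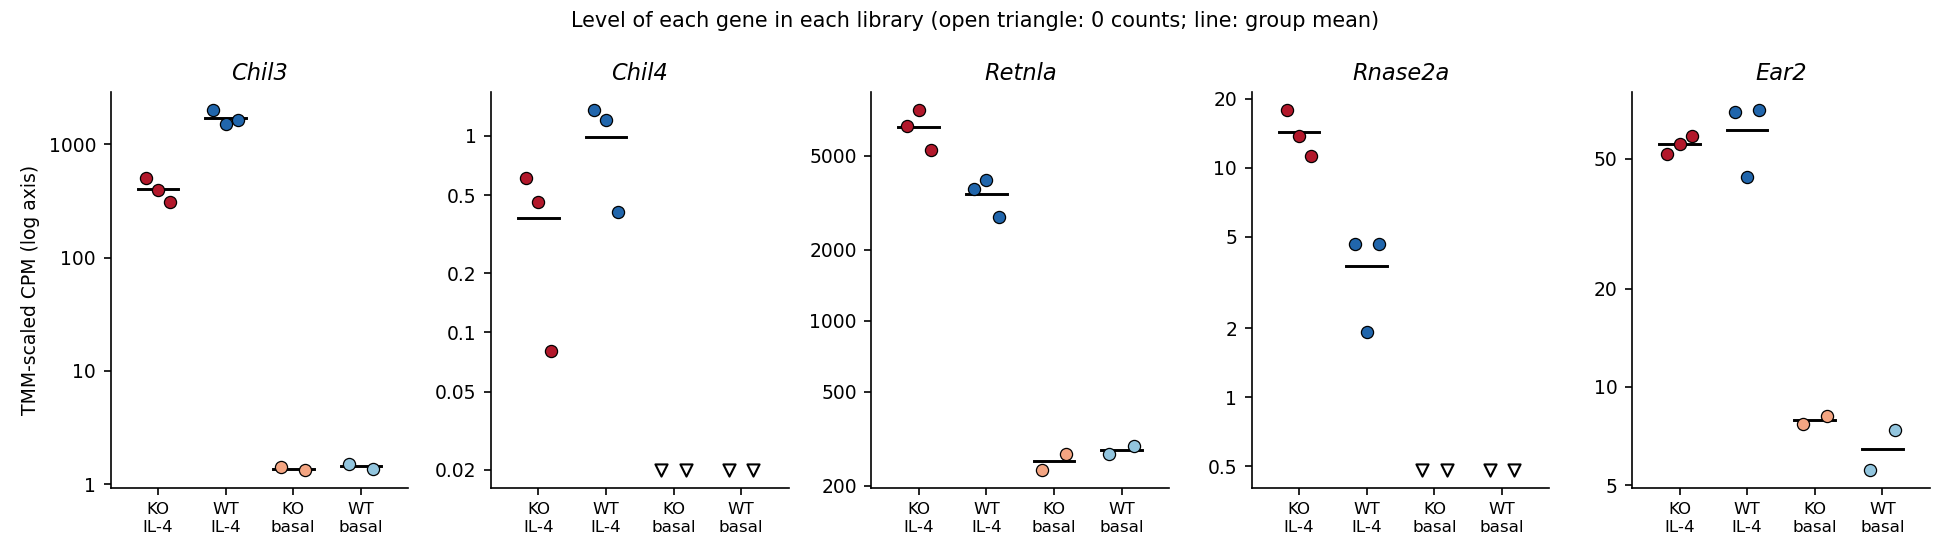
Level of each gene in each of the 10 libraries, as TMM-scaled CPM on log axes that differ between panels. Each point is a library, lines are group means, and open triangles are libraries with 0 counts. Chil3 lies lower in the 3 KO IL-4 libraries (308 to 501 CPM) than in the 3 WT IL-4 libraries (1498 to 2003 CPM), Retnla and Rnase2a lie higher in KO, and Ear2 and Chil4 overlap.

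IL-4 raised 4 of the 5 genes in each genotype, by 6.98-fold (Ear2 in KO) to 1179.6-fold (Chil3 in WT) for the 3 with basal reads, while the rise of Rnase2a, with no basal reads, has only a lower bound. In KO macrophages Chil3, Retnla, Rnase2a and Ear2 were called higher after IL-4, where 4.09% of all genes were called higher. In WT macrophages the same 4 genes were called higher, where 3.26% of all genes were. Rnase2a passed the filter through the IL-4 libraries alone and so had to lie higher there, and its calls are not read against these shares. Chil4 was not called in either genotype. IL-4 and basal libraries did not overlap for any of the 5 genes, against 39.6% of all genes in KO and 40.2% in WT that did not overlap. For Chil4 and Rnase2a, which passed the filter through the IL-4 libraries alone, this separation follows from the filter. In whole-population RNA such as this, a change in the share of cells that express a gene and a change in RNA per cell cannot be told apart.

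Chil3 was at 501, 397 and 308 CPM in KO IL-4 libraries and at 1.41 and 1.34 CPM in KO basal libraries, which held 13 and 15 reads. In WT it was at 2003, 1498 and 1628 CPM after IL-4, against 1.51 and 1.37 CPM under basal conditions, with 16 reads in each basal library. Every IL-4 library stood far above every basal library. The fitted difference was log2 8.18 ± 0.35 in KO (290.6-fold, adjusted p = 1.68e-09) and log2 10.20 ± 0.37 in WT (1179.6-fold, adjusted p = 1.51e-10). Chil3 had the smallest p of all 11614 genes in both genotypes.

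Retnla differed from Chil3 in already being abundant without IL-4. It was at 6682, 7821 and 5277 CPM in KO IL-4 libraries, against 233 and 273 CPM in KO basal libraries. In WT it was at 3631, 3947 and 2740.5 CPM after IL-4 and at 272 and 295 CPM under basal conditions. The IL-4 and basal libraries did not overlap in either genotype. Its response was log2 4.70 ± 0.27 in KO (26.0-fold, adjusted p = 6.91e-08) and log2 3.60 ± 0.25 in WT (12.1-fold, adjusted p = 9.69e-07).

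Rnase2a had no reads in any of the 4 basal libraries. After IL-4 it had 176, 179 and 140 reads in KO libraries (17.9, 13.7 and 11.2 CPM) and 55, 29 and 45 reads in WT libraries (4.65, 1.93 and 4.63 CPM). Each basal group was set to a floor of 3 reads over its libraries, or 0.147 CPM in KO and 0.135 CPM in WT. Against it Rnase2a was at least 95.3-fold higher after IL-4 in KO and at least 26.2-fold higher in WT. These bounds cover counting error only. edgeR's test, which did not use the floor, gave adjusted p = 7.60e-05 in KO and 8.75e-04 in WT. Since the gene passed the filter through the IL-4 libraries alone, its direction was fixed beforehand and these p-values are no separate support for it.

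Ear2, the paralog of Rnase2a, was detected in all 10 libraries. It was at 51.7, 55.4 and 58.8 CPM in KO IL-4 libraries and at 7.68 and 8.14 CPM in KO basal libraries. In WT libraries it was at 69.2, 43.9 and 70.4 CPM after IL-4, against 5.57 and 7.37 CPM under basal conditions. IL-4 and basal libraries were again apart in both genotypes. The rise was log2 2.80 ± 0.30 in KO (6.98-fold, adjusted p = 5.23e-05) and log2 3.24 ± 0.30 in WT (9.43-fold, adjusted p = 3.42e-05).

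Chil4 was close to the limit of detection. It had 6, 6 and 1 reads in KO IL-4 libraries, 16, 18 and 4 reads in WT IL-4 libraries and 0 reads in the basal libraries. Against the floor it was at least 2.50-fold higher after IL-4 in KO and at least 7.71-fold higher in WT, and it was called in neither (adjusted p = 0.240 and 0.118). The 3 IL-4 libraries of each genotype held from 822 to 3842 Chil3 reads per Chil4 read in KO and from 1252 to 3954 in WT. Since the 2 transcripts share sequence, how many of the Chil4 reads derive from Chil3 was not tested.

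**Figure D2:**
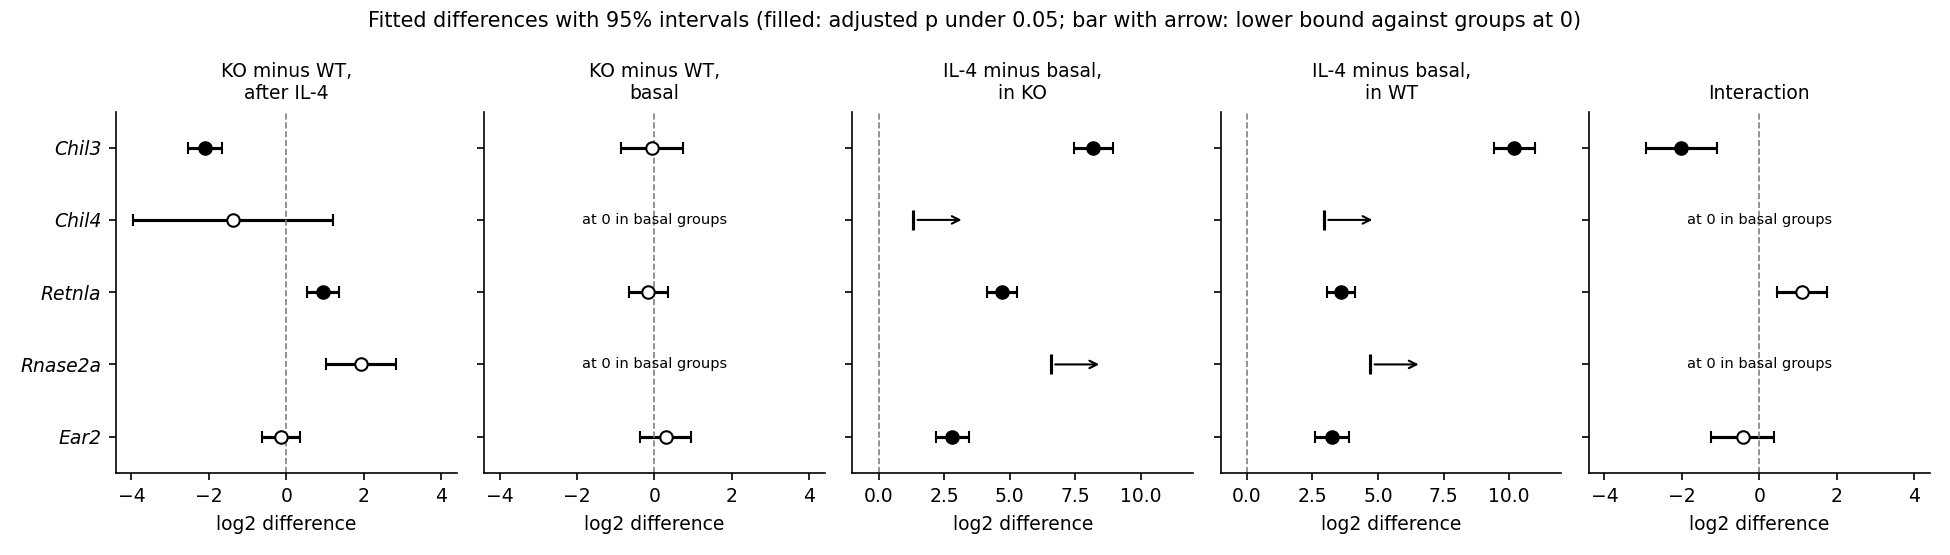
Fitted log2 differences of the 5 genes in the 5 contrasts, with 95% intervals. Filled points are called at an adjusted p under 0.05, and a bar with an arrow is a lower bound against basal groups with 0 reads. After IL-4 the KO minus WT difference of Chil3 lies below 0 and that of Retnla above 0, and all basal genotype differences that could be formed span 0.

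Between genotypes after IL-4 the 5 genes did not move together. Chil3 was 4.26-fold lower in KO and Retnla 1.92-fold higher, so 1 of the 5 was called lower, 1 was called higher and 3 were not called. Of all genes tested, 0.474% were called lower and 0.353% higher. The KO and WT libraries did not overlap for 3 of the 5 genes (Chil3, Retnla and Rnase2a), against 20.3% of all genes tested.

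Chil3 took 0.0396% of the counts in KO IL-4 libraries and 0.172% in WT IL-4 libraries, at means of 402 ± 96.8 and 1709.9 ± 262 CPM. Its difference of log2 -2.09 ± 0.21 (interval -2.53 to -1.65, adjusted p = 1.18e-04) ranked 3 of 11614 by p, and it stayed between -2.29 and -1.93 and called in every fit that left out 1 library. Some neutrophil genes were also lower in KO after IL-4. Neutrophils of mice can make Chil3, and their part in the Chil3 difference was not tested. The 14 neutrophil markers summed to 140 to 193 CPM in KO IL-4 libraries and to 210 to 249 CPM in WT IL-4 libraries. Of the 9 that were tested, 3 were called lower in KO (S100a8, S100a9 and Mmp8), and 0 were called higher. Over all genes 0.474% were called lower and 0.353% higher. The median of the 9 was log2 -1.27, against 0.02 over all genes, and 1 of the 9 lay above 0. S100a8 averaged 7.52 ± 2.52 CPM in KO IL-4 and 22.5 ± 2.51 CPM in WT IL-4 libraries. S100a9 averaged 10.8 ± 0.247 CPM in KO IL-4 and 44.4 ± 7.18 CPM in WT IL-4 libraries. Without 1 library, the calls of S100a8, S100a9 and Mmp8 were lost in 3, 6 and 3 of the fits. The neutrophil granule genes Camp, Ltf and Ngp and the surface marker Ly6g had at most 6 reads in any library. Most of the summed level was Csf3r, the G-CSF receptor gene, at 103 to 152 CPM in KO IL-4 libraries and 104 to 137 CPM in WT IL-4 libraries.

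The neutrophil markers also changed with IL-4 in WT. Of the 9 tested, 3 were called higher after IL-4 (S100a8, S100a9 and Mmp8) and 1 lower (Csf3r), with a median of log2 1.52. Over all genes 3.26% were called higher and 2.80% lower in WT. S100a8 averaged 22.5 ± 2.51 CPM in WT IL-4 and 6.94 ± 1.81 CPM in WT basal libraries, and Mmp8 14.2 ± 2.97 CPM in WT IL-4 and 0.596 ± 0.359 CPM in WT basal libraries. Without 1 library, the WT call of S100a8 was lost in 1 of the fits and that of S100a9 in 4. In KO 0 of the 9 were called after IL-4, with a median of log2 -0.83, where 4.09% of all genes were called higher and 3.51% lower. The part of these markers in the Chil3 response was not tested either.

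Retnla averaged 6594 ± 1274 CPM in KO IL-4 libraries and 3439.7 ± 626 CPM in WT IL-4 libraries, or 0.652% and 0.346% of all counts. The difference was log2 0.94 ± 0.19 (adjusted p = 0.0334). The lowest KO library, at 5277 CPM, stood above the highest WT library, at 3947 CPM. The call was lost in 5 of the fits without 1 library. These left out KO IL-4 replicate 1 (adjusted p = 0.0631) or 2 (0.0783), or WT IL-4 replicate 1 (0.137), 2 (0.0599) or 3 (0.185), with differences between 0.79 and 1.05.

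Rnase2a, with 14.3 ± 3.36 CPM in KO IL-4 libraries and 3.74 ± 1.57 CPM in WT IL-4 libraries, had the larger difference of the genes that lay higher in KO but did not pass the test. The value was log2 1.94 ± 0.42 (3.84-fold, interval 1.04 to 2.85, adjusted p = 0.0508). All 3 KO libraries lay above all 3 WT libraries, and the gene was called with DESeq2 (log2 1.96, adjusted p = 0.00252), library totals in place of TMM (adjusted p = 0.0444), no filter on low counts (9.00e-04), a fit to the IL-4 libraries alone (0.0289) or any 1 basal library left out (0.0326 to 0.0404). It was not called with the replicate block (0.0666) or without any 1 of the 6 IL-4 libraries (0.085 to 0.141), and adding its counts to those of Ear2 and the other Ear genes gave log2 0.10 (adjusted p = 0.884).

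Ear2 averaged 55.3 ± 3.56 CPM in KO IL-4 libraries and 61.2 ± 14.9 CPM in WT IL-4 libraries, and the KO values lay within the range of the WT values. Its difference was log2 -0.14 ± 0.23 with an interval of -0.63 to 0.34 (adjusted p = 0.825). Chil4 had log2 -1.37 ± 1.20 (adjusted p = 0.646), with libraries that overlapped between genotypes. It passed the filter only through WT IL-4 replicates 1 and 2, with 16 and 18 reads, so the filter itself favoured a lower value in KO. The eosinophil genes Prg2, Prg3 and Epx, which encode granule proteins, and the ribonucleases Ear1 and Ear6 had 0 counts in all 10 libraries. Il5ra and Ccr3, also on the eosinophil list, had reads in all 10. Il5ra was at 29.5 and 40.25 CPM in KO basal libraries, against 6.99 and 3.34 CPM in WT basal libraries. Of the 10 eosinophil markers 3 were tested, with none called between genotypes after IL-4. Under basal conditions 1 of the 3 was called higher in KO. After IL-4 in KO 1 was called lower, and 1 had a negative interaction. The part of these markers in the responses of Rnase2a and Ear2 was not tested.

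Under basal conditions 0 of the 5 genes were called between genotypes, where 4.14% of all genes were called. Chil3 had log2 -0.07 ± 0.37 (adjusted p = 0.956), and Retnla log2 -0.16 ± 0.24 (adjusted p = 0.789). Ear2 had log2 0.29 ± 0.31 (adjusted p = 0.699), while Chil4 and Rnase2a had no reads to compare. In these same libraries the cell populations differed in marker content. The 11 B cell markers summed to 1252 and 1585 CPM in KO basal libraries and to 139 and 235 CPM in WT basal libraries. Markers of small macrophages, of monocytes and of dendritic cells summed to 1981 and 2554 CPM in KO basal libraries, against 557 and 1051 CPM in WT basal libraries.

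Those shifts also enter the IL-4 comparisons, whose baselines are the basal libraries. The same small macrophage, monocyte and dendritic cell markers summed to 2269 to 2306 CPM in KO IL-4 libraries, within the range of the KO basal libraries, but single markers went both ways. Of the 16 tested, Ccr2 and Cd226 were called higher after IL-4 in KO, and Napsa and Plac8 lower. Over all genes 4.09% were called higher and 3.51% lower. The call of Cd226 was lost without either KO basal library. Ccr2, a chemokine receptor of monocytes, averaged 690.4 ± 71.7 CPM in KO IL-4 and 163 ± 33.9 CPM in KO basal libraries, and Plac8 55.8 ± 7.25 CPM in KO IL-4 and 246 ± 19.7 CPM in KO basal libraries. All 11 B cell markers and 7 of the 9 tested mast cell and basophil markers were called lower after IL-4 in KO, where 3.51% of all genes were. The B cell markers summed to 417.5 ± 58.6 CPM in KO IL-4 and 1419 ± 235 CPM in KO basal libraries.

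In WT the small macrophage, monocyte and dendritic cell markers summed to 2649 to 3190 CPM after IL-4, above the WT basal libraries. Of the 16 tested, 9 were called higher and 0 lower, where 3.26% of all genes were called higher and 2.80% lower. Of the 11 B cell markers, 5 were called higher after IL-4 in WT and 0 lower, opposite to KO. They summed to 427 ± 29.8 CPM in WT IL-4 and 187 ± 68.4 CPM in WT basal libraries. Of the 9 tested mast cell and basophil markers, 3 were called lower in WT and 0 higher. The part of these shifts in the response of the 5 genes was not tested in either genotype. Markers of the resident large macrophages were abundant in every group, at 15400 to 25450 CPM in KO IL-4, 16420 to 17760 CPM in WT IL-4, 17710 to 19980 CPM in KO basal and 15910 to 22940 CPM in WT basal libraries.

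**Figure D3:**
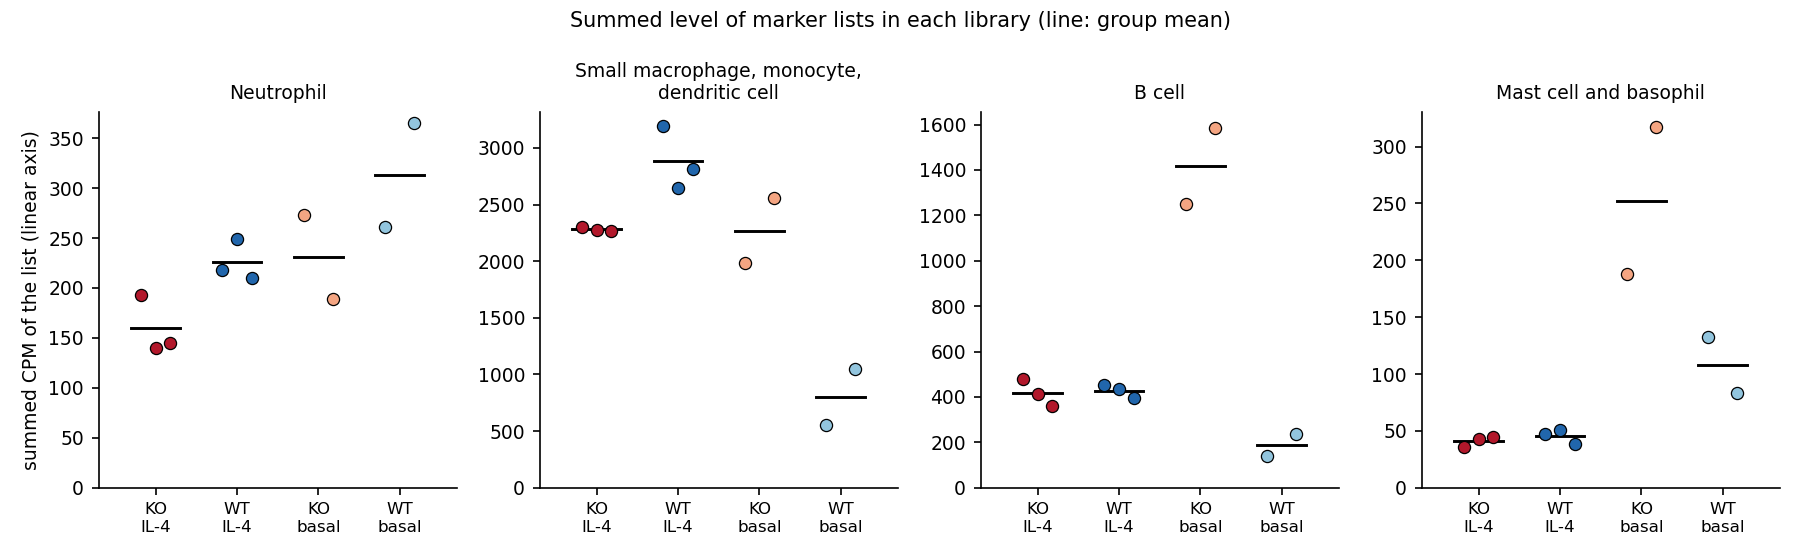
Summed CPM of 4 marker lists in each library, on linear axes that start at 0. Points are libraries and lines are group means. Neutrophil markers lie lower in KO IL-4 (140 to 193 CPM) than in WT IL-4 libraries (210 to 249 CPM), and B cell and mast cell markers are highest in KO basal libraries.

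Subtracting the WT response to IL-4 from the KO response gives the interaction, which was called for 1 of the 5 genes, Chil3, and was negative, where 1.78% of all genes were called as lower. It was log2 -2.02 ± 0.43 for Chil3 (adjusted p = 0.0171), and the call was lost without KO basal replicate 1 (adjusted p = 0.0795), KO basal replicate 2 (0.0783) or WT basal replicate 2 (0.0634). Retnla had log2 1.10 ± 0.31 (adjusted p = 0.0699) and Ear2 log2 -0.43 ± 0.38 (adjusted p = 0.657). Among the marker lists, the interaction was called negative for all 11 B cell markers, for 6 of the 16 tested small macrophage, monocyte and dendritic cell markers and for 3 of the 9 tested neutrophil markers, and their part in the Chil3 interaction was not tested. No interaction could be formed for Chil4 and Rnase2a, which were at 0 in both basal groups.

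Ratios of reads within a library do not depend on how libraries are scaled, and they showed how unevenly the genes differed. There were 13.3, 19.7 and 17.1 Retnla reads per Chil3 read in KO IL-4 libraries, against 1.81, 2.63 and 1.68 in WT IL-4 libraries. Under basal conditions the ratio was 166.0 and 204 in KO and 180 and 215 in WT. After IL-4, Chil3 reads thus came nearer in number to Retnla reads in WT than in KO libraries, and the genotypes did not overlap. That lack of overlap follows from the opposite separations of Chil3 and Retnla given above and adds no further evidence. These ratios are not corrected for gene length. Per kilobase of exon, Chil3 was at 1048 CPM and Retnla at 5742 CPM in WT IL-4 libraries.

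A second contrast lay within the ribonuclease pair. There were 2.89, 4.03 and 5.24 Ear2 reads per Rnase2a read in KO IL-4 libraries and 14.9, 22.8 and 15.2 in WT IL-4 libraries. Chil3 reads per Rnase2a read numbered 28.0, 28.9 and 27.4 in KO IL-4 libraries, against 431, 777 and 351 in WT IL-4 libraries. Neither ratio overlapped between genotypes. For Chil3 and Rnase2a this follows from the opposite separations of the single genes given above. Levels of Ear2 overlapped between genotypes while those of Rnase2a did not, so that ratio largely restates the separation of Rnase2a.

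**Figure D4:**
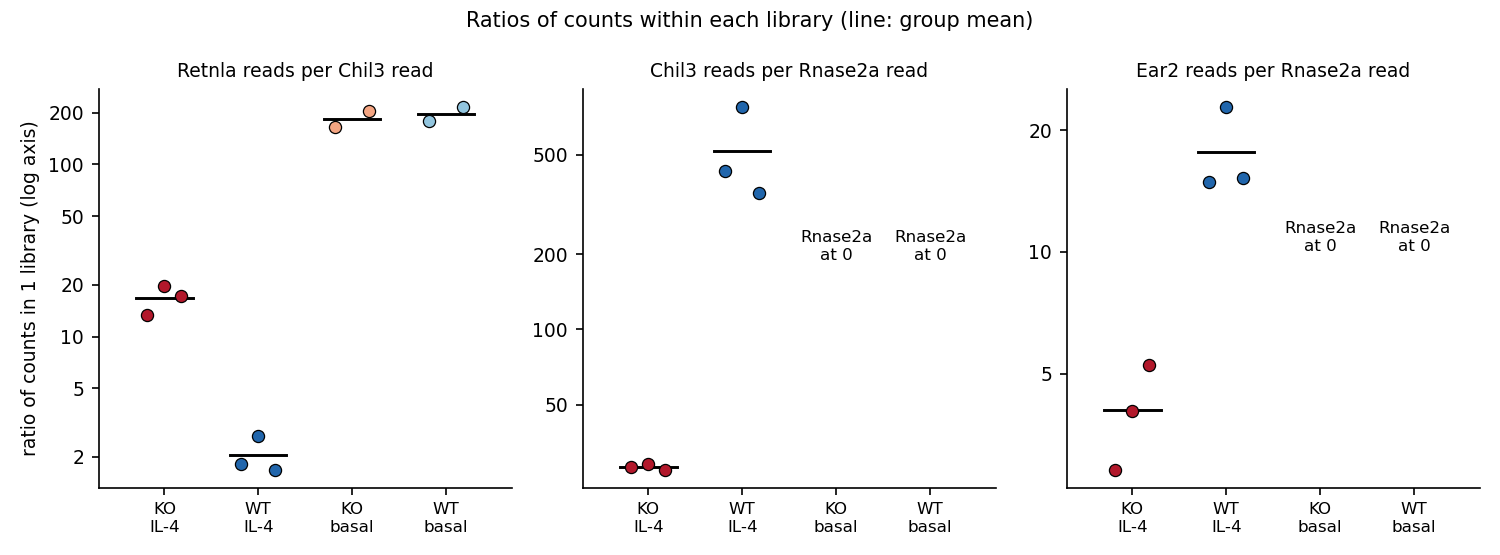
Ratios of read counts between pairs of the genes within each library, on log axes. Points are libraries and lines are group means. Retnla reads per Chil3 read lie at 13.3 to 19.7 in KO IL-4 and 1.68 to 2.63 in WT IL-4 libraries, and Chil3 and Ear2 reads per Rnase2a read are lower in KO, with no ratio where Rnase2a was at 0.

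Per kilobase of exon, the 5 genes covered nearly the whole range of levels in these cells. Retnla was at 11010 CPM per kilobase in KO IL-4 libraries and at 5742 in WT IL-4 libraries, the first and the third highest level of 21745 genes. Chil3 was at 246 CPM per kilobase in KO IL-4 libraries (rank 161) and at 1048 in WT IL-4 libraries (rank 39). Under basal conditions Retnla stayed among the top genes, at 423 in KO (rank 102) and 473 in WT (rank 107), while Chil3 was at 0.842 in KO and 0.883 in WT.

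The ribonucleases stood lower on the same scale. Ear2 was at 76.9 CPM per kilobase in KO IL-4 libraries and 85.1 in WT IL-4 libraries, and Rnase2a at 20.7 in KO IL-4 and 5.42 in WT IL-4 libraries. Chil4 was at 0.136 in KO IL-4 libraries and 0.350 in WT IL-4 libraries. The order after IL-4 was Retnla, Chil3, Ear2, Rnase2a and Chil4 in both genotypes.

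Other members of the 3 families were mostly silent or unmoved. Of 10 listed chitinase family genes 6 were tested, and beside Chil3 only Chil1, a chitinase-like lectin, was called in any contrast. Chil1 rose after IL-4 in KO to 6.53 ± 3.81 CPM, against 1.19 ± 0.159 CPM in KO basal libraries (log2 2.46 ± 0.53, adjusted p = 0.0103), a call that was lost without either KO basal library. Its WT response was log2 1.18 ± 0.47 (adjusted p = 0.154), and the interaction was not called (adjusted p = 0.403). Chid1, Ctbs and Ovgp1 were called in no contrast. Chil6 had 0 counts, and Chia1, the enzymatically active chitinase that neighbours Chil3, had 6 reads over all libraries.

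In the resistin family, Retnlg lies 28160 bases downstream of Retnla on the same strand. It averaged 3.22 ± 2.35 CPM in KO IL-4 and 7.67 ± 1.28 CPM in WT IL-4 libraries, with a difference of log2 -1.27 ± 0.63 (adjusted p = 0.379), a sign opposite to that of Retnla. Retnlg is a neutrophil gene in mice and is among the neutrophil markers above. Retnlb, the intestinal family member, had 0 counts although it lies 23659 bases upstream of Retnla. Retn, resistin itself, was called in no contrast.

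Of 20 listed ribonuclease A genes only 5 were tested. Rnase6, an antimicrobial ribonuclease of monocytes and macrophages, was higher in KO basal libraries, at 53.6 ± 7.38 CPM, than in WT basal libraries, at 18.2 ± 9.48 CPM (log2 1.55 ± 0.38, adjusted p = 0.0324). That call was lost in 4 of the fits without 1 library. It was not called between genotypes after IL-4 (log2 0.04 ± 0.30, adjusted p = 0.966). Rnase4 and Ang, which overlap each other on the same strand, were called in no contrast. Ear1, Ear6, Ear10 and Ear14 and the protein-coding neighbours of Rnase2a and Ear2 within 100000 bases had 0 counts in all libraries. Since Ear1 and Ear10 share sequence with Ear2, their 0 counts also depend on how reads that fit several genes were treated.

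Most other products of alternative activation were not called between the genotypes. Of 16 tested secreted or effector genes on the list, 2 were called higher in KO after IL-4 (Igf1 and Ccl24), where 0.353% of all genes were, and 2 lower (Cxcl13 and Tgm2), where 0.474% were, with a median of log2 -0.22 against 0.02 over all genes. Igf1, insulin-like growth factor 1, averaged 616 ± 34.7 CPM in KO and 168 ± 10.9 CPM in WT IL-4 libraries, and Ccl24, a chemokine for eosinophils, 157 ± 23.5 CPM in KO and 80.6 ± 1.87 CPM in WT IL-4 libraries. Leaving out single libraries ended the Ccl24 call in 5 fits (adjusted p as high as 0.160) and that of Tgm2 in 1 (0.0774). Of 23 tested genes of the IL-4 receptor, STAT6 and its targets, 0 were called higher in KO and 1 lower, with a median of log2 0.11. The lower gene was Clec10a, a C-type lectin (log2 -1.70 ± 0.22, adjusted p = 0.00245).

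The receptor and the transcription factor themselves were not called between genotypes after IL-4. Il4ra, the receptor's alpha chain, had log2 -0.19 ± 0.24 (adjusted p = 0.767) and Stat6 log2 0.11 ± 0.21 (adjusted p = 0.865). None of the 6 tested genes of the C/EBP and PU.1 families was called in that comparison, with a median of log2 0.09.

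Within each genotype the other IL-4 targets gave a scale for the 5 genes. Arg1, arginase 1, rose by log2 4.98 ± 0.36 in KO (adjusted p = 1.56e-06) and by log2 6.51 ± 0.39 in WT (adjusted p = 3.97e-07), with an interaction of log2 -1.53 ± 0.41 that was not called (adjusted p = 0.0611). Mgl2, a C-type lectin, rose by log2 3.27 ± 0.37 in KO and 4.12 ± 0.39 in WT. Clec10a rose by log2 1.01 ± 0.25 in KO and 3.32 ± 0.28 in WT, and its interaction of log2 -2.31 ± 0.36 was called (adjusted p = 0.00227). Clec10a therefore had a negative interaction like that of Chil3 at a much smaller response. Of the 23 tested genes of the STAT6 list, 7 were called higher and 2 lower after IL-4 in KO, with a median of log2 0.72, where 4.09% of all genes were called higher and 3.51% lower. In WT 5 were called higher and 0 lower, with a median of log2 0.49, where 3.26% of all genes were called higher and 2.80% lower. The KO call of Clec10a was lost in 3 of the fits without 1 library.

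**Figure D5:**
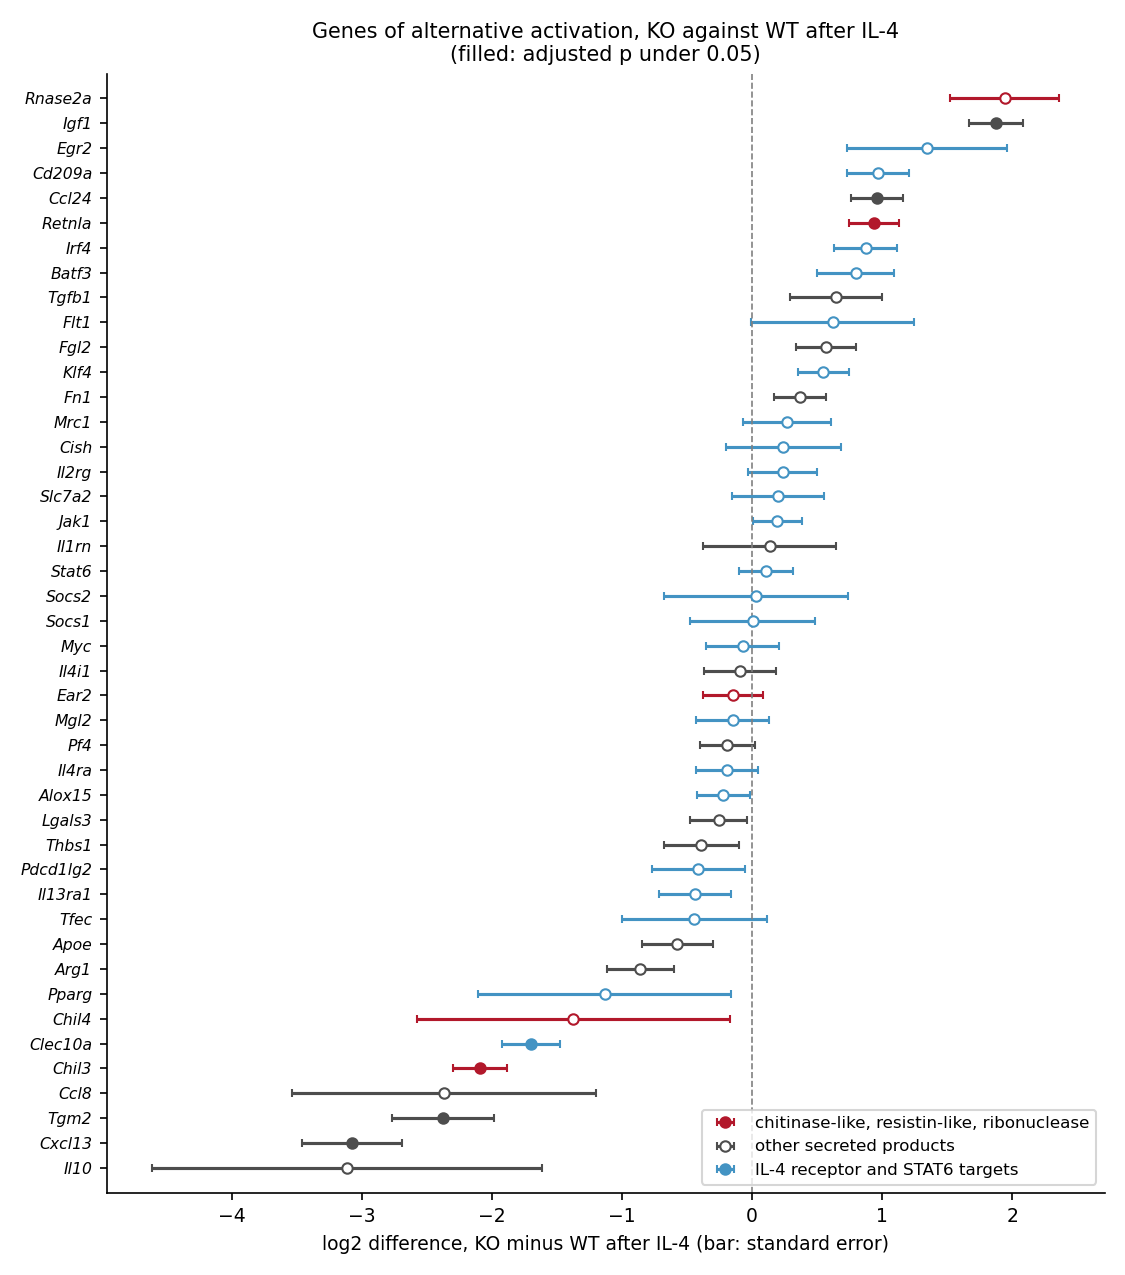
KO minus WT differences after IL-4 (log2, with standard error bars) for the 5 genes, other secreted products of alternative activation and genes of the IL-4 receptor and STAT6 list, ordered by value. Filled points are called at an adjusted p under 0.05. Retnla lies among the genes above 0, beside Ccl24, Chil3 lies near Clec10a below 0, and most genes of the lists are not called.

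The genes whose levels followed each of the 5 most closely differed between them. The measure was Pearson's r of log2 CPM over the 10 libraries among 8194 genes whose mean reached 10 CPM in some group. Chil3 was most like Gsto1 (r = 0.990), Nfia (0.987) and Arg1 (0.986), and Ear2 most like Arg1 (0.984), Mgl2 (0.980) and Ccr2 (0.972). Retnla was most like Cdca3 (0.989), Ccnb2 (0.987) and Nfkbiz (0.987), and Rnase2a most like Cdca2 (0.993), Ccnb2 (0.986) and Peli2 (0.983). Chil4 was most like Gm5617, Ext1 and Arl6ip1, at r of 0.943 to 0.950. Ccnb2, the cyclin B2 gene, was thus close to both genes that lay higher in KO, at 21.3 CPM in KO IL-4 and 14.1 CPM in WT IL-4 libraries.

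Among the 5 genes the closest pairs were Retnla with Rnase2a (r = 0.98) and Chil3 with Ear2 (r = 0.977), and not the paralogs, since Rnase2a with Ear2 gave 0.946 and Chil3 with Chil4 0.898. All these values share the same 10 libraries, which fall into an IL-4 and a basal cluster, and they are given as descriptions.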

How the data were processed

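The authors deposited whole-number read counts per gene and library, the counts used here. Per the submitters' processing notes, STAR, HTSeq and the mm10 build were used; versions, strand setting and the treatment of reads that fit several genes are not given in the sources used here. Symbols were taken from GENCODE M21 by Ensembl identifier, and 420 of 22165 identifiers had none. With edgeR 4.0.16 in R 4.3.3, filterByExpr at a count of 10 and a total of 15 kept 11614 genes, and TMM gave the scaling. The 4 group means were fitted by quasi-likelihood with robust dispersions, on 6 residual degrees of freedom, at a common biological coefficient of variation of 28.4%. Tests were two-sided with Benjamini-Hochberg adjustment, and intervals are 95%. The scripts were tested on simulated counts. A gene at 0 in a basal group was given a bound against 3 counts over that group's libraries.

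The 5 genes and the other lists were chosen with earlier results of these data known. Named were the 5 genes in every contrast, every tested gene of their 3 families, at most 4 genes of each other list with the smallest p in a contrast, the 3 genes most like each of the 5, and checks of the labels; Il4ra, Stat6 and some marker genes with few reads were named after their values were seen. The gene that the knockout targets is not reported here. Ratios, levels per kilobase (exons of GENCODE M21) and correlations were computed as descriptions. Promoters and motif matches came from RefSeq (GRCm38.p6) with Python 3.11.15, pandas 2.3.3 and Biopython 1.88, and figures from matplotlib 3.10.9. Alternatives were DESeq2 1.42.0, other scalings, no filter, no robust dispersion, the compared groups alone, paralog counts added together, a replicate block, and leaving out each library.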

Additional observations from a re-analysis of the deposited data

Results flagged for a closer look

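The IL-4 effect on Chil3 differed between the genotypes. It was log2 8.18 ± 0.35 in KO and log2 10.20 ± 0.37 in WT, and the difference between them, log2 -2.02 ± 0.43, passed the interaction test of edgeR (adjusted p = 0.0171, with a range of 0.00109 to 0.0795 over the alternatives). The basal levels it rests on were 13 and 15 reads in KO and 16 and 16 reads in WT libraries.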

How the results depend on the processing

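For the 5 genes, 335 of 362 alternative values kept the direction and the side of the threshold, and 3 turned the direction of a difference that was not called. These were Chil3 under basal conditions with library totals (0.082) and without WT basal replicate 1 (0.012), and Ear2 between genotypes after IL-4 with paralog counts added (0.10). Without 1 library, KO minus WT after IL-4 ranged from -2.29 to -1.93 for Chil3, 0.79 to 1.08 for Retnla, 1.62 to 2.14 for Rnase2a (adjusted p 0.0326 to 0.141), -0.34 to -0.04 for Ear2 and -1.84 to -0.89 for Chil4; under basal conditions Chil3 ranged from -0.14 to 0.012; and the interaction ranged from -2.22 to -1.86 for Chil3 and 0.95 to 1.24 for Retnla. Chil4 did not pass the filter without WT IL-4 replicate 1 or without WT IL-4 replicate 2, so its range leaves out those fits. A group left with 1 library took its spread from the others. Rnase2a between genotypes was called with DESeq2 (1.96), library totals (1.91), no filter (1.91) and the IL-4 libraries alone (1.95). The Retnla interaction was called with DESeq2 (1.11), no filter (1.12) and the replicate block (1.10). Chil4 was called in WT with DESeq2 (5.91), and with Chil3 reads added it was called throughout (-2.09, 10.20 and 8.18), as those reads are nearly all Chil3. Libraries with the same replicate number shared little deviation from their group means (correlations of -0.11 to 0.062 over 13 same-number pairs). These pairs are not independent, and the values cannot exclude a pairing of samples. Genes called numbered 96 between genotypes after IL-4 (396 with DESeq2, 505 without filter, 21 to 129 without 1 library), 481 under basal conditions (895, 1034, 208 to 550), 883 for IL-4 in KO (1371, 1423, 327 to 931, and 554 with the block), 704 in WT (1185, 1209, 302 to 764) and 326 for the interaction (623, 819, 182 to 397). Library totals moved the median of all genes to 0.13 under basal conditions, -0.10 for IL-4 in KO and -0.17 for the interaction. For other named genes 871 of 993 alternative values kept their call. The causes of these changes were not tested.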
